A study of Mus musculus with 4 samples.

Results

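The comparison described here is the loss of LAIR1 in lungs without a tumor: the cells of the LAIR1KO normal library against those of the WT normal library, 3 hashtag replicates a side. The 2 libraries held 6916 cells past the filters, 3816 from LAIR1KO and 3100 from WT normal lung, of 15793 in the series of 4 libraries. A hashtag antibody (one that stains every cell of a sample with a barcode read in sequencing) assigned 2011 LAIR1KO and 1770 WT cells to replicates. Each replicate held 514 to 773 cells and 3297126 to 4880880 unique molecular identifiers (UMIs, counted RNA molecules). Cells were given a type by the marker genes they contained, and the UMIs of each type were summed per replicate before any test.

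Whole lungs of WT mice and of LAIR1KO mice were dissociated and read as single cells with a droplet kit that counts the 3' ends of transcripts. The normal groups had no tumor and no treatment. The other groups were WT and LAIR1KO mice with lungs bearing the B16/F10 mouse melanoma. They are used below as a second comparison of the genotypes that shares no sample with the first. The gene tests fit all 4 groups together, so both comparisons share the estimate of spread. The strain, age and sex of the mice, the way the LAIR1KO allele was made and whether each hashtag is 1 animal or a pool were not given in the sources used here, so p-values measure the spread between these hashtag samples.

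LAIR1 is an inhibitory receptor of leukocytes that binds collagen and collagen-like proteins such as complement C1q and surfactant protein D. Its cytoplasmic tail carries inhibitory motifs that recruit the phosphatases SHP-1 and SHP-2. In lung it is known from macrophages and monocytes. Interstitial macrophages lie in the tissue between airspaces and vessels, and one known kind, marked by LYVE1 and FOLR2, lies along vessels, while another carries more MHC class II for antigen presentation.

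The normal groups differed in sex as well as in genotype. Ddx3y, a helicase gene of the Y chromosome, stood at 185 to 202 CPM (UMIs over all assigned cells, with every replicate set to the same total) in WT normal lung and was at 0 in all 3 LAIR1KO normal replicates. Xist, whose RNA coats and silences an X chromosome in female cells, stood at 1120 to 1130 CPM in LAIR1KO and at 0.233 to 0.458 CPM in WT normal lung. In the tumor-bearing groups Xist stood at 1225 to 1346 CPM in WT and 1208 to 1374 CPM in LAIR1KO, so that comparison was matched for sex. Genotype, sex and library cannot be told apart in normal lung, and the effects of sex on genes outside the X and Y chromosomes were not tested.

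Lair1 (ENSMUSG00000055541; mm10, chromosome 7, 4003402 to 4063204, minus strand) was absent from the gated LAIR1KO cells with a hashtag. In interstitial macrophages the WT normal replicates stood at 125, 114 and 136 CPM (here and in the gene results below, scaled by TMM, a normalization that sets aside the few most changed genes), and the 3 LAIR1KO replicates were at 0. Over the assigned cells, 223 Lair1 UMIs were found in 251 WT interstitial macrophages and 0 in 209 LAIR1KO ones, at least 48.1-fold lower with a floor of 3 counts over the group. The adjusted p was 6.44e-08 (edgeR, 7484 genes), and the call was kept with each normal replicate left out in turn. Of WT interstitial macrophages 52.2% held a Lair1 UMI (95% exact interval 45.8 to 58.5; median 6732 UMIs a cell). As a background, 0.627% of 319 WT fibroblasts held one (2 cells; exact interval 0.0760 to 2.25; median 9816 UMIs), and 0 of 158 WT endothelial cells did (exact upper limit 2.31%; median 4745.5 UMIs). Neutrophils, short-lived phagocytes of blood and tissue, held 19 Lair1 UMIs in 553 WT cells and 0 in 558 LAIR1KO cells, at least 5.83-fold lower. With cells of any hashtag call the counts were 375 and 2 UMIs in interstitial macrophages and 42 and 1 in neutrophils. These intervals and floors cover counting error only.

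Barcodes that carried at least 3 markers of each of 2 or more lineages, here called mixed barcodes, were more frequent in the LAIR1KO library. They made up 33.9% of LAIR1KO barcodes (1294 of 3816; exact interval 32.4 to 35.4) and 16.7% of WT barcodes (517 of 3100; 15.4 to 18.0). Over the replicates with a hashtag call they made up 12.2, 13.2 and 10.7% of WT cells and 49.8, 29.9 and 35.6% of LAIR1KO cells, and the groups did not overlap. The log2 difference was 1.67 ± 0.41 (SE), with an adjusted p of 0.00305 (edgeR over 15 classes). The exact permutation test of 3 against 3 replicates gave p = 0.1, the smallest it can give. Epithelial cells, which line the airways and airspaces, made up 6.26, 10.1 and 9.02% of WT and 0.766, 1.55 and 2.91% of LAIR1KO cells (log2 −2.28, adjusted p = 0.00305). Fibroblasts, the collagen-making cells of the tissue, made up 20.6, 11.9 and 20.5% of WT and 2.14, 7.76 and 5.13% of LAIR1KO cells (log2 −1.81, adjusted p = 0.00451). B cells were lower too, at 1.65 to 1.95% against 0.306 to 0.647% (log2 −2.0, adjusted p = 0.00823), from 32 and 9 cells. T cells (20 and 6 cells; log2 −1.89, adjusted p = 0.0423) and natural killer cells (15 and 4; −2.02, 0.0423) passed in this fit but not with the stricter gate, the other hashtag rule or clusters (adjusted p up to 0.168 and 0.112). The gate takes mixed barcodes out of the single-lineage classes. With mixed barcodes kept in a class, epithelial cells differed by −1.09 (edgeR, adjusted p = 0.0492) and fibroblasts by −1.33 (0.0137). With Leiden clusters in place of the gate, fibroblasts differed by 0.0029 (adjusted p = 0.993) and epithelial cells by −0.73 (0.111). The clusters put mixed barcodes back into classes. Cluster 13, counted as fibroblast, held 493 barcodes over all 4 libraries, of which 485 were mixed and 5 gated as fibroblasts. It held 393 LAIR1KO normal and 45 WT normal barcodes. The fibroblast value in clusters is thus not one of single-lineage cells. These shares are of cells and depend on dissociation, capture and the hashtag call. Of gated epithelial cells 67.0% in LAIR1KO and 48.6% in WT had no hashtag call, and of fibroblasts 64.8 and 52.9%.

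Shares of the myeloid cells did not pass the test. Interstitial macrophages made up 20.3, 10.7 and 11.4% of WT and 3.22, 14.2 and 13.3% of LAIR1KO cells (log2 −0.46 ± 0.49 SE, adjusted p = 0.43). Neutrophils made up 24.2, 36.2 and 33.7% of WT and 8.58, 38.4 and 35.0% of LAIR1KO cells (log2 −0.20 ± 0.48, adjusted p = 0.687). LAIR1KO replicate 1 was the low one for both, and it was the high one for endothelial cells, at 34.5% against 4.79 and 3.25% in the other replicates and 8.12 to 9.81% in WT. Hashtag 1 was high on LAIR1KO endothelial barcodes: the median endothelial barcode held 581 UMIs of hashtag 1 against 66 of hashtag 2 and 35 of hashtag 3, and 80.1% of assigned LAIR1KO endothelial cells were given to replicate 1 against 10.0% of interstitial macrophages. Interstitial macrophages without a hashtag call made up 54.1% of those cells in LAIR1KO and 23.6% in WT. Without LAIR1KO replicate 1 the log2 difference of the endothelial share was −1.14 (adjusted p = 0.0493) in place of 0.66 with it (adjusted p = 0.43), and that of neutrophils was 0.23. That run leaves out the replicate given most assigned LAIR1KO endothelial cells, so it cannot give the direction of the endothelial share. Before hashtag calls, 541 of 3816 LAIR1KO and 261 of 3100 WT barcodes were gated as endothelial, the larger part in LAIR1KO.

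**Figure D1:**
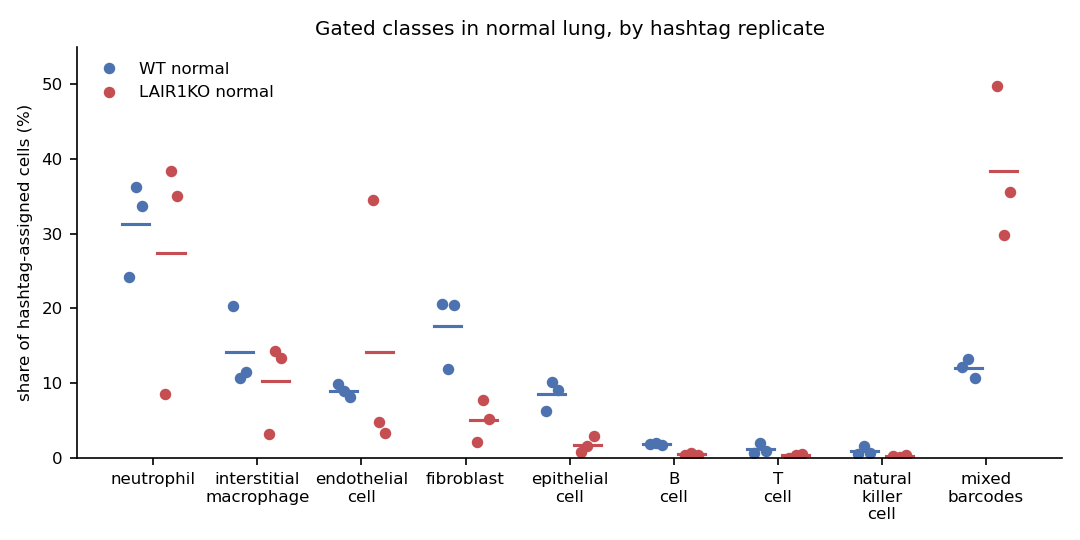
Share of hashtag-assigned cells, in percent, for the main cell classes and for mixed barcodes, with 1 point for each of the 3 replicates of WT normal and LAIR1KO normal lung and a line at their mean. Mixed barcodes sit at 10.7 to 13.2% in WT and 29.9 to 49.8% in LAIR1KO, and epithelial cells and fibroblasts lie lower in all 3 LAIR1KO replicates.

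Most of the mixed barcodes of LAIR1KO lung paired endothelial with mesenchymal transcripts. These 750 barcodes were 19.7% of the library (exact interval 18.4 to 21.0), against 124 barcodes and 4.00% in WT. In LAIR1KO their endothelial markers summed to 81.4 and their mesenchymal markers to 51.0 UMIs per 10000 UMIs, whereas single endothelial cells held 125 and 2.21 and single fibroblasts 1.19 and 97.5. Inmt, a methyltransferase of alveolar fibroblasts, stood at 23.5 per 10000 in them against 41.1 in fibroblasts, but Dcn, the matrix proteoglycan decorin, at 0.197 against 5.82. The WT barcodes of this kind held 2.40 of Dcn against 7.13 in WT fibroblasts, and 28.3 of Inmt against 50.9. The median LAIR1KO barcode of this kind held 9381 UMIs, and 29.3% of them carried 2 hashtags. In the same library 42.9% of single endothelial cells, 0.664% of fibroblasts and 24.3% of all barcodes did. Scrublet, a caller that looks for simulated pairs, marked 0.133% of the LAIR1KO barcodes of this kind as doublets. Just outside the rule lay the cells with 2 markers of a second lineage, 646 in LAIR1KO and 766 in WT, and just inside it the mixed barcodes with 3 of the second, 250 and 168. With cells of 2 such markers also set aside as mixed, the log2 difference in the mixed share was 0.66 (adjusted p = 0.103). Whether these barcodes are cell pairs or single cells was not tested.

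Keeping or removing the mixed barcodes changed which genes differed by genotype. S100a8 and S100a9 encode the chains of calprotectin, an abundant protein of neutrophils. With mixed barcodes out, S100a8 stood at 41.9, 42.7 and 50.1 CPM (of unscaled totals in this and the next results, to compare both gates) in WT interstitial macrophages and at 53.5, 55.1 and 66.4 in LAIR1KO. The 3 LAIR1KO values lay above the WT ones, with a log2 difference of 0.43 that did not pass the test (adjusted p = 0.56). With mixed barcodes kept in the lineage with the larger share of its markers detected, WT stood at 42.7, 45.8 and 48.7 and LAIR1KO at 171, 291 and 575 CPM (log2 3.02, adjusted p = 0.00169). S100a9 went from 56.2, 87.7 and 75.1 in WT and 41.6, 100 and 97.3 in LAIR1KO, which overlap (log2 0.35, adjusted p = 0.695), to 56.9, 82.9 and 79.3 against 318, 433 and 608 (log2 2.72, adjusted p = 0.00223). Il1r2, the decoy receptor of interleukin 1, passed neither with mixed barcodes kept (log2 1.73, adjusted p = 0.116) nor with them out (log2 0.79, adjusted p = 0.824). With them out LAIR1KO replicate 1 held 184 CPM and the other LAIR1KO replicates 8.62 and 49.8. The summed list of 11 neutrophil alarmin and granule genes in interstitial macrophages was 3.00 ± 0.52 UMIs per 10000 in WT and 3.83 ± 0.32 in LAIR1KO (SD, n = 3; exact permutation p = 0.1) without mixed barcodes, and 2.85 ± 0.47 against 11.4 ± 3.43 with them.

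Endothelial cells and fibroblasts turned on the mixed barcodes even more. Without them 4 genes passed in endothelial cells and 8 in fibroblasts, and with them 180 and 84. Of the 180 endothelial calls, 3 were among the 4, and 72 were in genes that were tested in both. Among the 180 were 5 markers of mesenchymal cells and 4 of the listed LAIR1 ligands (Col13a1, Col6a3, Col6a1 and Colec12, which encode 3 collagen chains and a collectin), and no listed ligand passed without mixed barcodes. Inmt in endothelial cells with mixed barcodes in stood at 801, 878 and 561 CPM in WT and 1317, 2052 and 2108 in LAIR1KO (log2 1.29, adjusted p = 0.0246), against log2 0.66 without them (adjusted p = 0.877). Mesenchymal marker UMIs in endothelial cells were 1.43 ± 0.47 per 10000 in WT and 2.34 ± 0.49 in LAIR1KO (exact permutation p = 0.2) without mixed barcodes, and 15.4 ± 2.79 against 38.9 ± 8.25 with them. In fibroblasts the added calls included 4 endothelial and 3 epithelial markers. Inmt and the other lineage markers counted here are those by which the gate sets mixed barcodes aside. Their lower level without mixed barcodes follows in part from that rule.

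**Figure D2:**
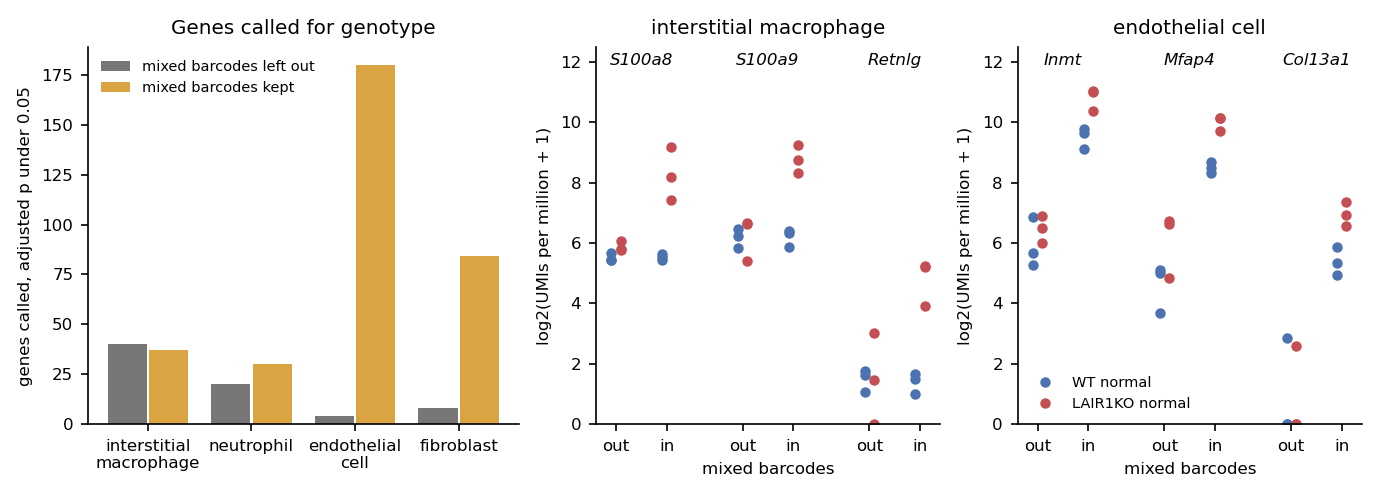
Left, the number of genes called for genotype in 4 cell classes with mixed barcodes left out and kept (4 and 180 in endothelial cells). Middle and right, the level of 3 genes each in interstitial macrophages and endothelial cells as log2(CPM + 1), with 1 point per WT or LAIR1KO normal replicate. In interstitial macrophages S100a8 is 53.5 to 66.4 CPM in LAIR1KO without mixed barcodes and 171 to 575 with them, while WT stays between 41.9 and 50.1.

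All gene results from here leave mixed barcodes out. In interstitial macrophages 40 of 7484 tested genes passed at an adjusted p under 0.05 (0.534%), 21 higher (0.281%) and 19 lower (0.254%) in LAIR1KO. Of the 40, 5 lay on X or Y and 1 was mitochondrial. Among 223 tested X genes 2 passed, Xist and Eif2s3x, and among 5 tested Y genes 3 passed. The cells came from 5 clusters in unequal parts: cluster 7 held 41.0% of WT and 19.6% of LAIR1KO interstitial macrophages, cluster 12 held 9.96 and 27.3%, cluster 5 27.9 and 27.8%, cluster 11 18.3 and 23.9%, and cluster 27 2.79 and 1.44%. Over all 4 libraries cluster 12 held 421 interstitial macrophages by the gate, 42 dendritic cells and 45 barcodes with no class, and the tests below use the gated macrophages alone. The values below are over all of them, so a change in the mix and a change within cells cannot be told apart. Of the 209 assigned LAIR1KO interstitial macrophages 10.0% were given to replicate 1. Its CPM values thus rest on few UMIs, above all for genes at a low level.

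Receptor and signalling genes were among the rises. Cxcr4, the receptor that holds leukocytes near sources of CXCL12, stood at 493, 448 and 400 CPM in WT and 856, 940 and 770 in LAIR1KO. No replicates overlapped, which the rule for naming risen genes required (log2 0.93 ± 0.13 SE, adjusted p = 0.00115). Pmepa1, which restrains TGF-beta signalling, stood at 132, 158 and 132 against 245, 285 and 369 CPM (log2 1.13, adjusted p = 0.0013). Runx3, a DNA-binding regulator of leukocyte development, stood at 28.8, 14.6 and 26.0 CPM in WT and 85.6, 83.2 and 86.7 in LAIR1KO (log2 1.79 ± 0.27, adjusted p = 0.00252). These 3 calls were kept with each normal replicate left out, with an adjusted p of at most 0.0225. Runx3 missed the threshold with Leiden clusters in place of the marker gate (0.90, adjusted p = 0.0721).

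Further rises kept their direction with each replicate left out in turn but not in every run their call. Mpeg1, a pore-forming protein that kills taken-up bacteria, stood at 163, 212 and 158 CPM in WT and 312, 423 and 371 in LAIR1KO (log2 1.10, adjusted p = 0.00365, or 0.0783 without LAIR1KO replicate 2). Rgs1, a brake on chemokine receptor signalling, stood at 457, 270 and 324 against 838, 1017 and 641 CPM (log2 1.23, adjusted p = 0.0065). F11r, the junctional adhesion molecule A, stood at 27.7, 31.7 and 30.3 against 61.1, 79.6 and 81.7 CPM (log2 1.38, adjusted p = 0.00769). Adrb1, the beta-1 adrenergic receptor, was near 0 in WT at 4.43, 0 and 6.49 CPM and stood at 42.8, 24.8 and 32.2 in LAIR1KO (log2 2.91, adjusted p = 0.0102). Prkcd, a protein kinase C of immune receptor signalling, rose least of the 8 by log2 0.75 (adjusted p = 0.0095). All 4 missed the threshold without LAIR1KO replicate 2, Rgs1 and Prkcd also without WT replicate 2 (adjusted p up to 0.112 and 0.122), and F11r and Adrb1 also without WT replicate 1 (up to 0.112 and 0.0767). The log2 differences over those runs were 0.97 to 1.21 for Mpeg1, 1.03 to 1.48 for Rgs1, 1.31 to 1.45 for F11r, 2.52 to 3.28 for Adrb1 and 0.71 to 0.82 for Prkcd. Rgs1 also missed it with cells of 2 second-lineage markers left out (0.93, adjusted p = 0.194).

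Of 14 tested genes known from LYVE1-high interstitial macrophages, 5 fell and 0 rose, beside 0.254% of all genes tested that fell. The other 9 did not pass. All 14 had a log2 difference below 0 and the median was −0.65, beside 0.00 over all genes tested. In 11 of the 14 every LAIR1KO replicate lay below every WT one, which held for 6.85% of all genes tested. F13a1, the A chain of coagulation factor XIII, stood at 1426, 1524 and 1203 CPM in WT and 825, 538 and 693 in LAIR1KO (log2 −1.04 ± 0.17, adjusted p = 0.0065). Folr2, a folate receptor, stood at 811, 855 and 748 against 471, 400 and 537 CPM (log2 −0.78, adjusted p = 0.00657). Lyve1, a receptor for hyaluronan, stood at 729, 684 and 413 against 300, 228 and 292 CPM (log2 −1.19, adjusted p = 0.0112). The WT and LAIR1KO values do not overlap for these 3 genes. With each replicate left out in turn the log2 difference ran from −1.17 to −0.89 for F13a1, −0.91 to −0.67 for Folr2 and −1.41 to −1.03 for Lyve1. Without LAIR1KO replicate 2 the adjusted p was 0.104 for F13a1 and 0.112 for Folr2, and that of Lyve1 was up to 0.149 without that replicate or WT replicate 1 or 2. With cells of 2 second-lineage markers left out Lyve1 missed the threshold as well (−1.21, adjusted p = 0.0695). Gas6, a ligand of the receptors that take up dying cells, and Pltp, a phospholipid carrier, fell by 0.74 and 0.56 on the log2 scale with adjusted p close to the threshold (0.0442 and 0.0494). Pltp missed it with any 1 replicate left out (up to 0.224), and Gas6 in 4 of 6 (up to 0.282) and with the hashtag number as a block (0.0598). Both missed it with genes on X and Y left out of the fit (0.0525 for Gas6 and 0.0571 for Pltp).

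Other genes fell beside that list. Fxyd2, a small regulator of the sodium pump, stood at 511, 531 and 307 CPM in WT and 208, 180 and 215 in LAIR1KO (log2 −1.18, adjusted p = 0.0065, or 0.104 without LAIR1KO replicate 2). Ednrb, an endothelin receptor, stood at 362, 482 and 353 against 214, 92.0 and 144 CPM (log2 −1.54, adjusted p = 0.0112, up to 0.180 without LAIR1KO replicate 2 or WT replicate 2). Prkar2b, which holds protein kinase A inactive until cAMP binds, fell by 1.77 on the log2 scale (adjusted p = 0.018, up to 0.125 without LAIR1KO replicate 2 or 3 or WT replicate 1 or 2). For all 3 genes the LAIR1KO values lay below the WT ones, which the rule for naming them required.

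Lists tied to the receptor or to inflammation mostly held no call. Of 15 tested signalling partners of LAIR1 and related inhibitory receptors, which include the phosphatase genes Ptpn6 and Ptpn11, 0 passed (median log2 0.16). Of 22 cytokine and chemokine genes 0 passed, with 11 above 0. Of 7 MHC class II genes 0 passed, all 7 were above 0 and the median was 0.28. Of 14 interferon-stimulated genes 0 passed (median 0.45, 11 above 0), and of 20 immediate early and heat shock genes, which tissue dissociation is known to induce, 0 passed (median 0.07). Of 9 genes of migration and adhesion 2 rose, Cxcr4 and Ccr7. Ccr7, which guides cells to lymph nodes and is high in mature dendritic cells, stood at 6.65, 2.44 and 2.16 CPM in WT and 79.5, 10.6 and 59.4 in LAIR1KO (log2 3.11, adjusted p = 0.0442, or 0.0682 with the hashtag number as a block). It missed the threshold in 5 of 6 runs with a replicate left out (up to 0.240) and with genes on X and Y left out (0.0521). In Leiden clusters in place of the gate, which take in the dendritic cells of cluster 12, its sign turned (−0.60, adjusted p = 0.816). Of the 7 dendritic cell markers of the gate 3 were tested in the gated macrophages, Ccl22 (log2 1.49, adjusted p = 0.168), Cd209a (−0.33, 0.871) and Fscn1 (−0.26, 0.894), and their part in the Ccr7 result was not tested.

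**Figure D3:**
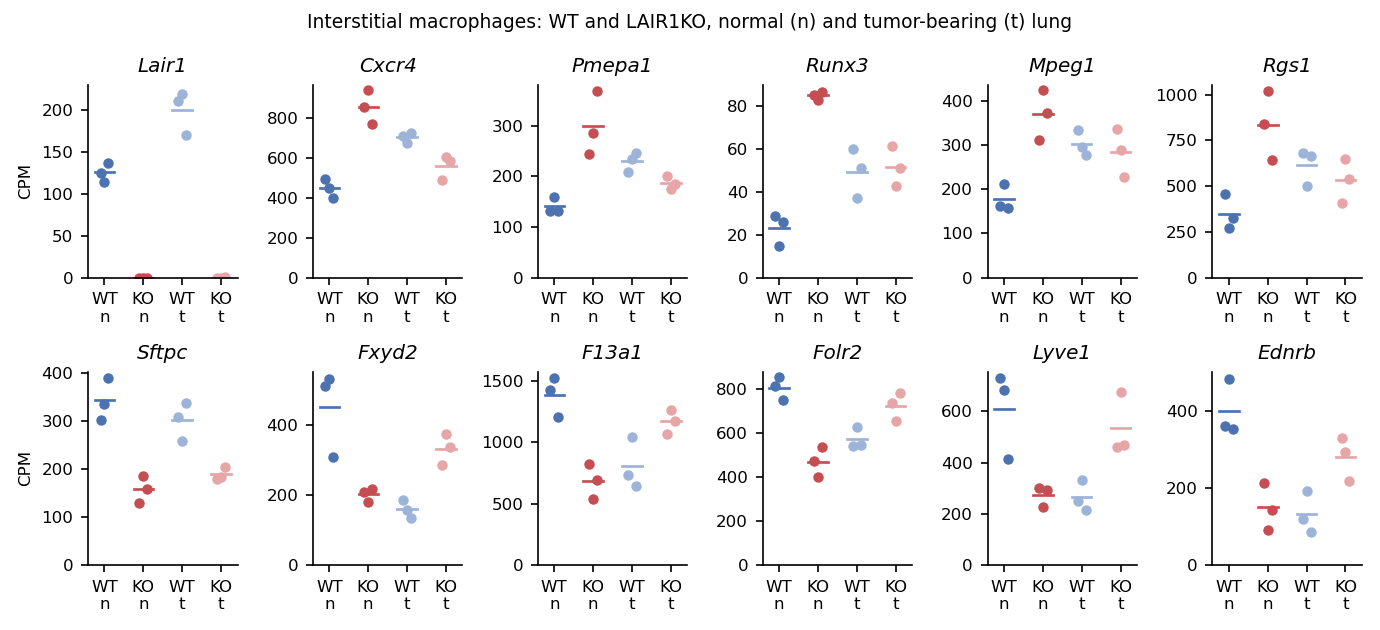
Level in CPM (linear axes from 0) of named genes in interstitial macrophages, with 1 point per replicate and a line at the mean, in WT and LAIR1KO (KO) normal (n) and tumor-bearing (t) lung. Cxcr4 lies at 400 to 493 CPM in WT normal and 770 to 940 in LAIR1KO normal lung, and Lyve1 at 413 to 729 and 228 to 300.

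These macrophage differences were compared with those of the sex-matched tumor-bearing lungs. Of the 34 calls outside X and Y other than Lair1, 29 had the other sign there and 5 the same sign, beside 53.4% of all tested genes with the other sign. By edgeR 2 of 7484 genes passed in that comparison (0.0267%), Lair1 and Fxyd2. Fxyd2 went the other way, at 185, 158 and 133 CPM in WT and 285, 374 and 335 in LAIR1KO tumor-bearing lung (log2 1.06, adjusted p = 0.0371). Lyve1 stood at 250, 331 and 214 CPM in WT and 460, 676 and 468 in LAIR1KO tumor-bearing lung, and Cxcr4 at 707, 672 and 726 against 488, 604 and 584. Neither passed there. The median of the LYVE1-high list was 0.35 in tumor-bearing lung.

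The difference between the 2 genotype effects was tested as an interaction, which uses the normal samples again. It passed for 61 of 7484 genes (0.815%), and for 24 of the 34. For Cxcr4 the effect in normal lung was 1.27 log2 units above that in tumor-bearing lung (adjusted p = 0.00142), for Lyve1 it was −2.19 (adjusted p = 0.00128) and for Fxyd2 −2.24 (adjusted p = 0.000244). For Adrb1 the interaction did not pass (adjusted p = 0.0741). The tumor-bearing pair is matched for sex, and the part of sex in the normal pair was not tested.

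**Figure D4:**
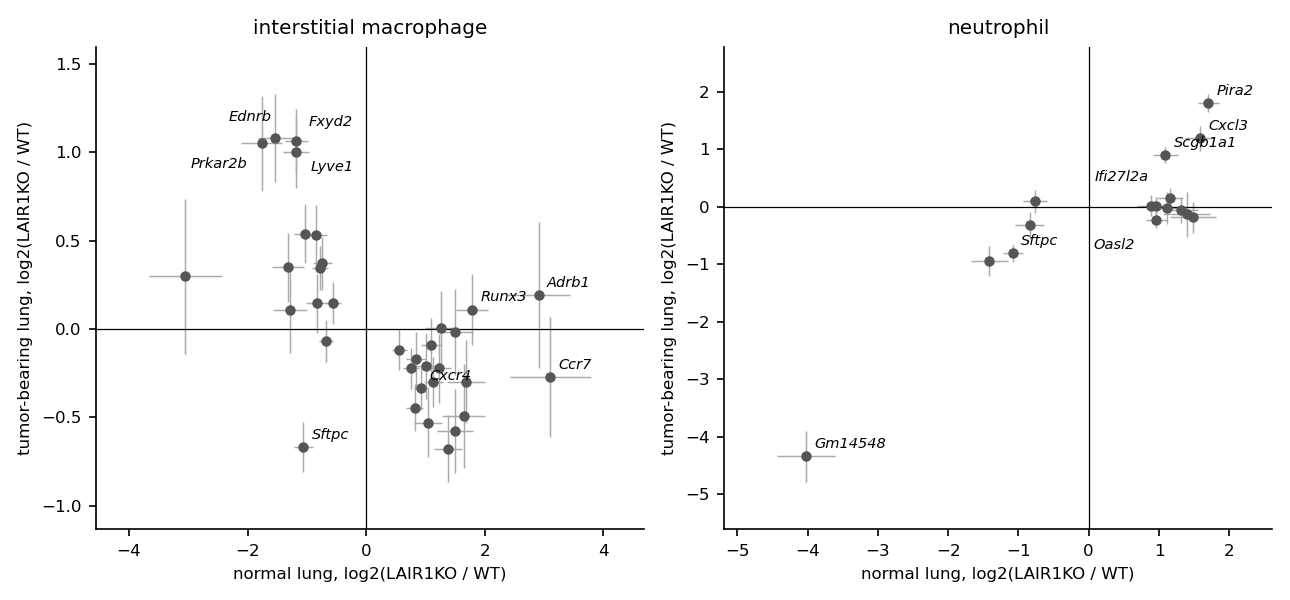
Log2 difference of LAIR1KO against WT in normal lung (x axis) and in tumor-bearing lung (y axis) for genes called in normal lung, in interstitial macrophages and in neutrophils, with bars of 1 SE. Of the 34 macrophage genes outside X and Y other than Lair1, 29 lie in the quadrants of opposite sign, and of the 16 neutrophil genes 10 lie in those of the same sign.

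In neutrophils 20 of 3357 genes passed (0.596%), 12 higher (0.357%) and 8 lower (0.238%), and 16 lay outside X and Y. The pair with the smallest p among those 16 were neighbours of Lair1 on chromosome 7. Pira2 (3836812 to 3845051) is a paired immunoglobulin-like receptor of the activating kind, and Gm14548 (3884242 to 3898120) is a gene model of the same cluster. Pira2 stood at 236, 183 and 224 CPM in WT and 616, 654 and 792 in LAIR1KO (log2 1.70 ± 0.15, adjusted p = 6.74e-09). Gm14548 stood at 173, 194 and 173 CPM in WT and 0, 17 and 5.37 in LAIR1KO (log2 −4.02 ± 0.41, adjusted p = 8.84e-08). Both groups are far apart in either gene.

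Tumor-bearing lung gave the same directions for these 2 genes in separate samples. Pira2 stood at 225, 174 and 221 CPM in WT and 793, 731 and 602 in LAIR1KO (log2 1.80, adjusted p = 2.69e-08), and Gm14548 at 229, 246 and 99.3 against 15.6, 0 and 4.60 (log2 −4.34, adjusted p = 2.87e-07). The inhibitory receptor Pirb, further along the cluster, held 492 UMIs in WT and 559 in LAIR1KO normal neutrophils and did not pass (log2 0.37, adjusted p = 0.338). Members of this cluster are close copies of each other, so how 3' reads were split between Pira2 and Gm14548 is uncertain, and DNA flanking the targeted allele can differ between lines. Neither was tested. Of 20 genes tested within 5 Mb of Lair1 no others passed in neutrophils. In interstitial macrophages 30 were tested, and besides Lair1 only Lilra5, an activating receptor of the same family (4237754 to 4243463), passed (48.8, 31.7 and 43.3 against 85.6, 97.3 and 119 CPM; log2 1.26, adjusted p = 0.0427). Its call was lost in 5 of 6 runs with a replicate left out (adjusted p up to 0.197, log2 1.13 to 1.44), and in tumor-bearing lung its log2 difference was 0.0056 (adjusted p = 1.0).

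Of 9 tested interferon-stimulated genes 3 rose in LAIR1KO normal neutrophils (Oasl2, Ifi27l2a and Ifit1) and 0 fell, beside 0.357% of all genes tested that rose. The other 6 did not pass, among them Isg15 (log2 0.30, adjusted p = 0.488) and Rsad2 (0.36, 0.641). The log2 difference was above 0 for 8 of the 9, and the median was 0.89 beside 0.00 over all genes tested. In tumor-bearing lung the median of the list was −0.02 and 0 passed. Oasl2, an antiviral protein, stood at 219, 229 and 198 CPM in WT and 343, 384 and 497 in LAIR1KO normal lung (log2 0.96 ± 0.15, adjusted p = 0.000207). It stood at 491, 501 and 542 in WT and 446, 448 and 414 in LAIR1KO tumor-bearing lung, and the interaction passed (1.19, adjusted p = 0.00594). WT normal neutrophils were thus the low group of the 4 for Oasl2.

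Ifi27l2a, a small interferon-induced membrane protein, stood at 500, 566 and 464 against 985, 987 and 1394 CPM (log2 1.15, adjusted p = 0.000223). Ifit1, which binds viral RNA ends, rose by log2 1.12 (adjusted p = 0.048), and missed the threshold with any 1 replicate left out (0.0693 to 0.318) and with genes on X and Y left out (0.0515). Outside the list, Slfn5 and Slfn4, members of the interferon-inducible Schlafen family, rose by log2 1.32 (adjusted p = 0.00123) and 0.96 (0.000842). Slfn5 stood at 38.2, 59.3 and 44.3 against 123, 134 and 99.4 CPM. Oas3, which makes the messenger that activates RNase L, rose by log2 0.89 (adjusted p = 0.019). The calls of Oasl2 and Ifi27l2a were kept with each replicate left out, whereas Slfn5 missed the threshold without LAIR1KO replicate 2 (0.0694), Slfn4 without LAIR1KO replicate 3 (0.0528) and Oas3 in 3 of 6 runs (up to 0.260).

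The promoters of 3 of the risen neutrophil genes hold letters known from interferon response elements. The motif searched was GAAA, any 2 bases, then GAAA again, on both strands in the 250 bases before the start (RefSeq promoters, GRCm38.p6). It was found in 3.46% of all promoters (936 of 27025), in 4.22% of those of genes tested in neutrophils (113 of 2679), and in 3 of the 9 risen genes with a promoter in the table. Of 5 listed interferon-stimulated genes with a promoter 3 held it, Ifit1 and also Isg15 and Rsad2, which did not pass in neutrophils. Each is shown as 50 bases with the match in capitals, because these genes were called together. A match is a description and not a bound site.
Slfn5, chr11:82951927-82951976, plus strand: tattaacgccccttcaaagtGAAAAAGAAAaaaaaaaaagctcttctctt
Oas3, chr5:120777705-120777754, minus strand: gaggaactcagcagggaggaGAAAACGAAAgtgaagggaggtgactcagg
Ifit1, chr19:34640765-34640814, plus strand, match on the other strand: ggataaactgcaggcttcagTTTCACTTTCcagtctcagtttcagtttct

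Cxcl3, a chemokine that draws neutrophils, was the only one of 15 tested cytokine and chemokine genes to pass in neutrophils. It stood at 385, 391 and 253 CPM in WT and 1099, 904 and 1082 in LAIR1KO normal lung (log2 1.59 ± 0.21, adjusted p = 1.55e-05), and the call was kept with each replicate left out. It passed in tumor-bearing lung too (log2 1.19, adjusted p = 0.00603). Hspa1b, the inducible heat shock protein 70, rose by log2 1.39 (adjusted p = 0.0402), with LAIR1KO replicate 1 at 792 CPM and the others at 244 and 169 against 90.2 to 162 in WT. Without that replicate it was 0.79 on the log2 scale and missed the threshold. Of 9 tested neutrophil alarmin and granule genes 0 passed (median log2 0.16), and of 15 partners of LAIR1 signalling 0 passed (median 0.02).

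Of the 16 neutrophil calls outside X and Y, 10 had the same sign in tumor-bearing lung and 6 the other, which 55.1% of all tested genes had, and 5 passed there in the same direction: Pira2, Gm14548, Cxcl3, Sftpc and Scgb1a1. In that comparison 13 of 3357 genes passed (0.387%). The interaction passed for 3 genes (0.0894%), among them Oasl2 and Xist, for 1 in endothelial cells (0.018%) and for 2 in fibroblasts (0.0254%), while in both of those 0 genes passed for genotype in tumor-bearing lung.

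**Figure D5:**
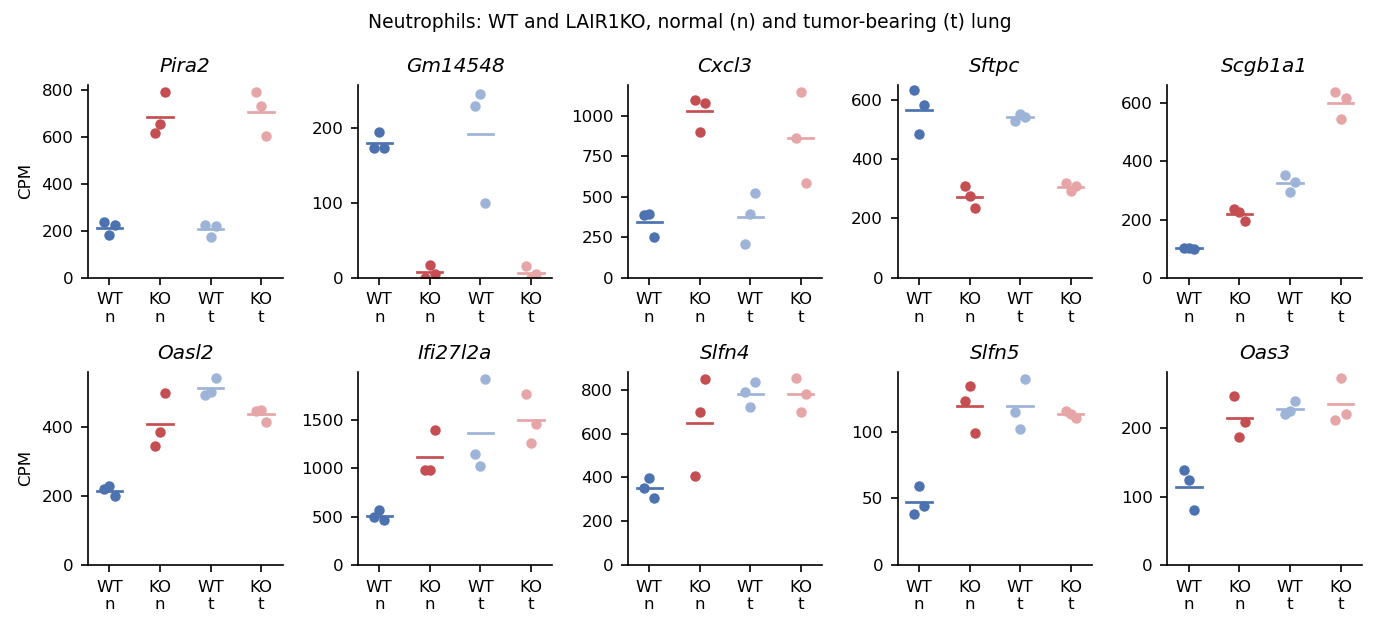
Level in CPM (linear axes from 0) of named genes in neutrophils, with 1 point per replicate and a line at the mean, in WT and LAIR1KO (KO) normal (n) and tumor-bearing (t) lung. Pira2 lies at 183 to 236 CPM in WT normal and 616 to 792 in LAIR1KO normal lung with a like gap in tumor-bearing lung, while Oasl2 is low in WT normal lung alone.

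Sftpc, an epithelial gene, fell in all 4 classes with a gene test. It encodes surfactant protein C of alveolar type 2 cells and stood at 631, 483 and 582 CPM in WT neutrophils and 308, 274 and 236 in LAIR1KO (log2 −1.08, adjusted p = 1.29e-05). In interstitial macrophages it stood at 303, 336 and 389 against 128, 186 and 158 CPM (log2 −1.06, adjusted p = 0.00313), and it passed in endothelial cells (log2 −1.30, adjusted p = 0.016, up to 0.163 with a replicate left out) and fibroblasts (−0.95, adjusted p = 0.0497, up to 0.337). With mixed barcodes kept the log2 difference turned in interstitial macrophages (2.99, adjusted p = 0.185) and fibroblasts (2.18, 0.493). In those macrophages LAIR1KO replicate 1 stood at 7938 CPM of unscaled totals. The other LAIR1KO replicates, at 180 and 153, stayed below the 302, 343 and 373 of WT. In fibroblasts WT then stood at 277, 3006 and 264 and LAIR1KO at 147, 4505 and 11350. Scgb1a1, the secretoglobin of airway club cells, went the other way in neutrophils, at 101, 102 and 99.1 against 237, 225 and 193 CPM (log2 1.09, adjusted p = 0.000223), and in fibroblasts (1.09, adjusted p = 0.0346, up to 0.237 with a replicate left out). Epithelial cells were also a lower share of LAIR1KO cells. The 8 epithelial markers summed to 0.167 to 0.249 UMIs per 10000 in WT and 0.161 to 0.350 in LAIR1KO neutrophils, with 1 to 4 of them at 0 in any replicate, and to 0.132 to 0.308 against 0.166 to 0.297 in interstitial macrophages. In fibroblasts they summed to 0.150 to 0.277 in WT and 0.781 to 1.88 in LAIR1KO, higher without overlap, and in endothelial cells to 0.720 to 0.916 and 0.323 to 1.74. The part of epithelial transcripts in the results for these 2 genes was not tested.

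The gate had set aside barcodes with 3 or more markers of a second lineage, which limits the marker sums below. Those sums cannot show that transcripts of other cells were low in the macrophages and neutrophils compared. In neutrophils surfactant and secretory transcripts summed to 7.10 to 8.48 UMIs per 10000 in WT and 4.52 to 5.78 in LAIR1KO. In interstitial macrophages the 10 neutrophil markers summed to 4.10 to 6.07 UMIs per 10000 in WT and 2.14 to 3.89 in LAIR1KO. Most of that sum was Mmp9, at 351, 377 and 532 CPM of unscaled totals in WT and 137, 236 and 311 in LAIR1KO. The list of neutrophil alarmin and granule genes leaned the other way there, at 3.00 ± 0.52 in WT and 3.83 ± 0.32 in LAIR1KO. The 10 endothelial markers summed to 0.356 to 0.605 in WT and 0.773 to 1.0 in LAIR1KO interstitial macrophages. In neutrophils the endothelial markers summed to 0.498 to 0.795 in WT and 1.41 to 1.66 in LAIR1KO (exact permutation p = 0.1). The part of transcripts of other cells in the gene results was not tested.

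Endothelial cells and fibroblasts held few calls once mixed barcodes were out. In endothelial cells 4 of 5550 genes passed (0.0721%), 2 higher (0.036%) and 2 lower (0.036%), 2 of them Xist and Ddx3y and the others Sftpc and Ifit1. Hashtag 1 was high on LAIR1KO endothelial barcodes, and 80.1% of the assigned ones were given to replicate 1. The LAIR1KO replicates of this class are thus uneven. Whether replicate 1 holds cells of other hashtag samples was not tested. Ifit1 stood at 20.6, 21.0 and 19.3 CPM in WT and 67.2, 148 and 116 in LAIR1KO (log2 2.19 ± 0.40, adjusted p = 0.0293), and missed the threshold in 5 of 6 runs with a replicate left out (up to 0.188). All 11 tested interferon-stimulated genes were above 0 there (median 0.70). All 8 tested cell cycle genes were above 0 as well (median 0.92) and 0 passed. Of 20 immediate early and heat shock genes only 1 was above 0 in endothelial cells (median −0.36), and 0 passed. Over all genes tested there 2837 of 5550 were above 0. In fibroblasts 3 of 20 of that list were above 0 (median −0.15) and 0 passed, beside 3915 of 7877 genes. In fibroblasts 8 of 7877 genes passed (0.102%), 3 higher (0.0381%) and 5 lower (0.0635%), of which 3 lay outside X and Y: Sftpc, Scgb1a1 and H3f3b, a histone H3.3 gene (2371, 2127 and 2636 against 1380, 1572 and 1575 CPM; log2 −0.65, adjusted p = 0.0301, up to 0.193 with a replicate left out). With genes on X and Y left out of the fit none of these 3 passed in edgeR (adjusted p = 0.113 for H3f3b and Scgb1a1 and 0.114 for Sftpc), and 0 genes passed in all (553 at an unadjusted p under 0.05). In the same setting Ifit1 missed the threshold in endothelial cells (0.0545).

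No listed LAIR1 ligand passed in the 3 classes where any was tested. In interstitial macrophages 5 were tested (median log2 −0.27), among them the complement genes C1qb (−0.12, adjusted p = 0.742) and C1qc (−0.27, 0.274). Of 14 tested LAIR1 ligand genes in fibroblasts, which include the fibrillar collagen genes Col1a1, Col1a2 and Col3a1, 0 passed, 8 were above 0 and the median log2 difference was 0.02. In endothelial cells 3 were tested and 0 passed (median 0.19). Epithelial cells, which make surfactant protein D, had no gene test. B, T and natural killer cells, with 9, 6 and 4 assigned LAIR1KO cells, were too few for one.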

How the data were processed

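Single-cell 3' RNA of 4 lung libraries was analysed. The authors deposited raw UMI counts per gene and hashtag. The submitters' processing notes name mm10, Cell Ranger 4.0.0, Seurat 3.2.0, STAR and R 4.0.0. The normal libraries held 25216301 (WT) and 28034709 (LAIR1KO) UMIs, and shared 7 barcodes.

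Barcodes with at least 300 genes and at most 10% mitochondrial UMIs were kept. Hashtags were called with HTODemux (Seurat 5.3.0, R 4.3.3, quantile 0.99); 57.1% of WT and 52.7% of LAIR1KO normal cells got 1 hashtag. A class needed 3 markers (13 classes, 7 lineages). Sums of UMIs in replicates of 10 cells or more went into edgeR 4.0.16 (quasi-likelihood, TMM, filterByExpr) over all 4 groups, with Benjamini-Hochberg adjusted p under 0.05; shares with edgeR too. DESeq2 1.42.0, no filter, the 6 normal replicates alone, a hashtag block, no X and Y, other gates and hashtag rules, Leiden clusters (scanpy 1.11.5, leidenalg 0.10.2, 34 clusters) and replicates left out were alternatives. Scrublet marked 339 of 15793 cells, which stayed in.

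Same-numbered replicates deviated together in interstitial macrophages (r = 0.128, 0.199 and 0.326 over 3056 genes), where the block gave 41 calls for 40, and not in other classes. In simulated counts, 47% of 2-fold and 86% of 4-fold changes were recovered in interstitial macrophages (7484 genes), and 70 and 97% in neutrophils (3357 genes).

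Named genes were the 8 risen and 8 fallen (5 in other classes) with the smallest p, at least 1.5-fold, at 20 CPM or more and with replicates apart, passing over gate markers, ribosomal and mitochondrial genes and gene models, plus called list members and called genes near Lair1. Members, lists and rules were chosen with earlier results of these data known.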

Additional observations from a re-analysis of the deposited data

Results flagged for a closer look

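The log2 difference of LAIR1KO against WT was unlike in normal and tumor-bearing lung for several named genes. It was tested as an interaction by edgeR (normal minus tumor-bearing lung, 3 replicates a group). Genotype, sex and library cannot be told apart in normal lung, so this difference is not one of genotype alone. In interstitial macrophages it was higher in normal lung for Cxcr4 (1.27), Pmepa1 (1.43), Runx3 (1.68), Mpeg1 (1.19), Rgs1 (1.45), F11r (2.06), Prkcd (0.97) and Ccr7 (3.38). It was lower for Fxyd2 (−2.24), F13a1 (−1.58), Folr2 (−1.13), Lyve1 (−2.19), Ednrb (−2.63), Prkar2b (−2.81) and Gas6 (−1.11). In neutrophils Oasl2 differed by 1.19. Xist differed in interstitial macrophages (13.35), neutrophils (7.89), endothelial cells (11.6) and fibroblasts (12.91), where the WT normal replicates were at 0. Xist follows the sex of the groups, which differed in normal lung and was matched in tumor-bearing lung.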

How the results depend on the processing

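The count of genes called in interstitial macrophages (40) was 185 with no filter on low counts, 25 with cells of 2 second-lineage markers left out, 64 in Leiden clusters and 9 to 47 with a normal replicate left out, 9 being without LAIR1KO replicate 2. Outside X and Y (35) it was 56 by DESeq2, 176, 22 and 57 under those 3 settings and 7 to 42. In neutrophils (20) it was 35 with the top hashtag rule, and outside X and Y (16) 10 by DESeq2, 25 with mixed barcodes kept and 31 with the top hashtag rule. In endothelial cells (4) it was 70 with no filter, 1 without X and Y, 180 with mixed barcodes kept, 7 with the top hashtag rule, 9 in clusters and 2 to 6 with a replicate left out. In fibroblasts (8) the count was 17 by DESeq2, 107 with no filter, 84 with mixed barcodes kept, 5 with the stricter gate, 48 with the top hashtag rule and 2 to 9 with a replicate left out. In clusters, which add mixed barcodes such as 485 of the 493 in cluster 13, the count was 2229. Without X and Y it was 0 by edgeR in fibroblasts (553 genes at an unadjusted p under 0.05; DESeq2, with X and Y, 17). The replicate block gave 3 calls there, 20 in neutrophils and 4 in endothelial cells. What same-numbered samples share beyond the hashtag number was not given.

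With mixed barcodes kept Sftpc reversed to 2.99 in interstitial macrophages, where only LAIR1KO replicate 1 lay above WT, and to 2.18 in fibroblasts. In clusters it reversed to 0.076 in endothelial cells and 0.92 in fibroblasts. Ccr7 reversed to −0.60 in clusters, and Il1r2 to −1.60 with the stricter gate and −0.23 without LAIR1KO replicate 1 (up to 1.61 with another left out). Log2 differences of shares were 0.10 and 0.076 for interstitial macrophages and neutrophils with the top hashtag rule, 1.64 for endothelial cells with mixed barcodes kept, 0.0029 for fibroblasts and −0.73 for epithelial cells in clusters, and 0.66 for mixed barcodes with the stricter gate. For T cells they were −1.66, −0.97 and −1.57 with the stricter gate, the top hashtag rule and clusters, and for natural killer cells −1.95, −1.42 and −1.88. With a replicate left out they ran from −0.53 to 0.23 for neutrophils, −1.14 to 1.13 for endothelial cells, −2.38 to −1.33 for T cells and −2.48 to −1.40 for natural killer cells. With mixed barcodes kept, other-lineage transcripts differed by 23.5, 2.77 and 8.58 UMIs per 10000 (mesenchymal in endothelial, endothelial in fibroblast, alarmin in interstitial macrophage). The causes were not tested. A mixed share has no value with mixed barcodes kept or in clusters. Depth limits B, T and natural killer cells, which had no gene test. With edgeR on the 6 normal replicates alone, Prkar2b (adjusted p = 0.058) and Pltp (0.0947) missed the threshold in interstitial macrophages. Ifit1 missed it in endothelial cells (0.0822), as did H3f3b (0.0802) and Scgb1a1 (0.103) in fibroblasts.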
